A study of Mus musculus with 13 samples.

Results

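The genes described here make, degrade, bind or take up retinoic acid, the signalling form of vitamin A. They are the 9 genes Aldh1a1, Aldh1a2, Aldh1a3, Cyp26a1, Cyp26b1, Cyp26c1, Crabp1, Crabp2 and Stra6. They were chosen by name, with earlier results of these data known, and were found through the platform annotation. Each had 1 feature among the 62976 features of the array, which carried 20738 named genes in all. RNA was measured on 13 one-colour Agilent arrays of mouse samples in 7 groups, and the authors deposited log2 signals. The study set induced embryonic Sertoli cells beside the fibroblasts they came from and beside Sertoli cells from the testis, where these cells nurse the germ cells.

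The starting cells were mouse embryonic fibroblasts carrying an empty vector (MEF, 2 arrays) and tail tip fibroblasts carrying tdTomato (TTF, 2 arrays), both labelled wild type and grown for 3 passages in 10% serum. The induced embryonic Sertoli cells (ieSC) carried transgenes for Nr5a1, Wt1, Dmrt1, Gata4 and Sox9 and were grown for 6 months in 2% serum with doxycycline. Those made out of TTF are called TTF-ieSC (2 arrays) and those made out of MEF are called MEF-ieSC (1 array). The wild-type native samples were uncultured male gonad at 14.5 dpc (2 arrays) and 2 kinds of cultured Sertoli cell. Immature ones were taken from 19 dpc testis and kept for 3 days in 10% serum (2 arrays), and mature ones were taken from 8 week testis and kept for 7 days in 10% serum (2 arrays). No group held fibroblasts kept for as long and in the same medium without the factors, so the effects of the factors and of culture cannot be told apart. No source used here gives the promoter behind the transgenes, the number of animals pooled or whether replicate arrays came from separate cultures. The p-values therefore rest on the spread among arrays alone, and that spread may be technical.

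Cells take up retinol through Stra6, a receptor for the retinol carrier protein of blood, and dehydrogenases such as Rdh10 oxidise it to retinal. The retinal dehydrogenases Aldh1a1, Aldh1a2 and Aldh1a3 then make retinoic acid, Crabp1 and Crabp2 bind it in the cytosol, and the cytochrome P450 enzymes Cyp26a1, Cyp26b1 and Cyp26c1 oxidise it for removal. In the nucleus it acts on receptor pairs (a retinoic acid receptor with a retinoid X receptor) that sit on paired half-sites in DNA. In the fetal testis Cyp26b1 of Sertoli cells is known to keep retinoic acid from germ cells, in which it would start Stra8 and meiosis. After birth, retinoic acid from Sertoli cells is known to serve spermatogonia.

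Cyp26a1 is the textbook case of a gene that retinoic acid itself turns on, through a direct repeat with 5 bases between its half-sites, and that site is shown here because its letters could be read from a reference promoter. A search on both strands covered 300 bases per start site, 250 before and 50 after it, in RefSeq sequence of GRCm38.p6. The half-site was written NGNTCA, and 2 motifs were searched, a pair of half-sites in the same direction with 5 bases between them and a pair with 2 bases between them. Of the 9 genes, 7 matched entries of the table, with 11 windows between them; Aldh1a3 and Crabp2 did not match. The Cyp26a1 window held 1 match to the first motif, 32 to 16 bases before the start that this table uses, and the other 10 windows held no match to either. The site is printed 5′ to 3′ at chr19:37697770-37697799 on the plus strand, with the half-sites in capitals, and then alone as read on the minus strand, where the repeated half-site is visible.
Cyp26a1, gene strand: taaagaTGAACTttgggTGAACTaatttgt
Cyp26a1, motif strand: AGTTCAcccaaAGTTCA
Of 32851 windows of this length, 0.861% held the first motif and 1.11% the second. The RefSeq gene span of Cyp26a1 begins before the site, so against that outermost start the site lies inside the gene. A match describes letters in the reference and is not a measurement in these cells. Cyp26c1 is the direct neighbour of Cyp26a1 on the chromosome, with 0 genes listed between them.

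Each array had the same distribution, whose median was 7.488, upper quartile 10.473 and highest value 18.872. A level under the array median is dim by rank, and since the background is unknown, so is the true size of a fold against it. The arrays carry no depth and no detection or saturation flags, and their number limits the precision. Over the 16658 tested genes, the root mean square of the log2 difference between replicates was 0.167 to 0.310. The 13 Sertoli cell markers checked were all above the array median in the gonad and 12 of them were in immature and in mature cultures; Amh, a Sertoli cell hormone of the male embryo, was at 6.59 in the mature cultures. In TTF-ieSC and MEF-ieSC 10 of the 13 were above it, and Amh, Gata4 and Fshr, which encodes a hormone receptor of Sertoli cells, were not. In MEF 9 of the 13 were above it and in TTF 7. The log2 of the summed signal of all 13 was 14.71 to 14.98 in the fibroblasts and 18.87 to 19.32 in the induced cells. In the native samples it was 19.08 to 19.39. Such a sum follows its brightest genes, such as Clu, at 17.83 in TTF-ieSC and 17.82 in MEF-ieSC. Sox9 was lower in the induced cells (9.79 and 9.12) than in TTF (11.31) and MEF (10.88). Wt1 was higher (16.48 and 16.58, against 6.81 and 11.77). Sox9, Gata4, Wt1 and Nr5a1 are also transgenes of the induced cells, and whether their features read transgene RNA was not tested. The gonad also held all 9 germ cell markers and all 4 Leydig cell markers of the array above the upper quartile. In the immature and mature cultures all 4 Leydig cell markers were above it too, with 6 and 4 of the 9 germ cell markers. All 7 peritubular or smooth muscle markers were above it in both cultures and in MEF, and 3 were in the gonad. In the mature cultures 3 of 5 spermatid markers were above it.

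Of the 9 genes, 8 exceeded the array median on 2 or more arrays and were tested. Cyp26c1, an enzyme with the same reaction as Cyp26a1, was under the array median on 13 of 13 arrays, with values from 4.40 to 5.86, and was not tested. Its levels give no order of the groups. The plot of signal by array shows all 9.

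**Figure D1:**
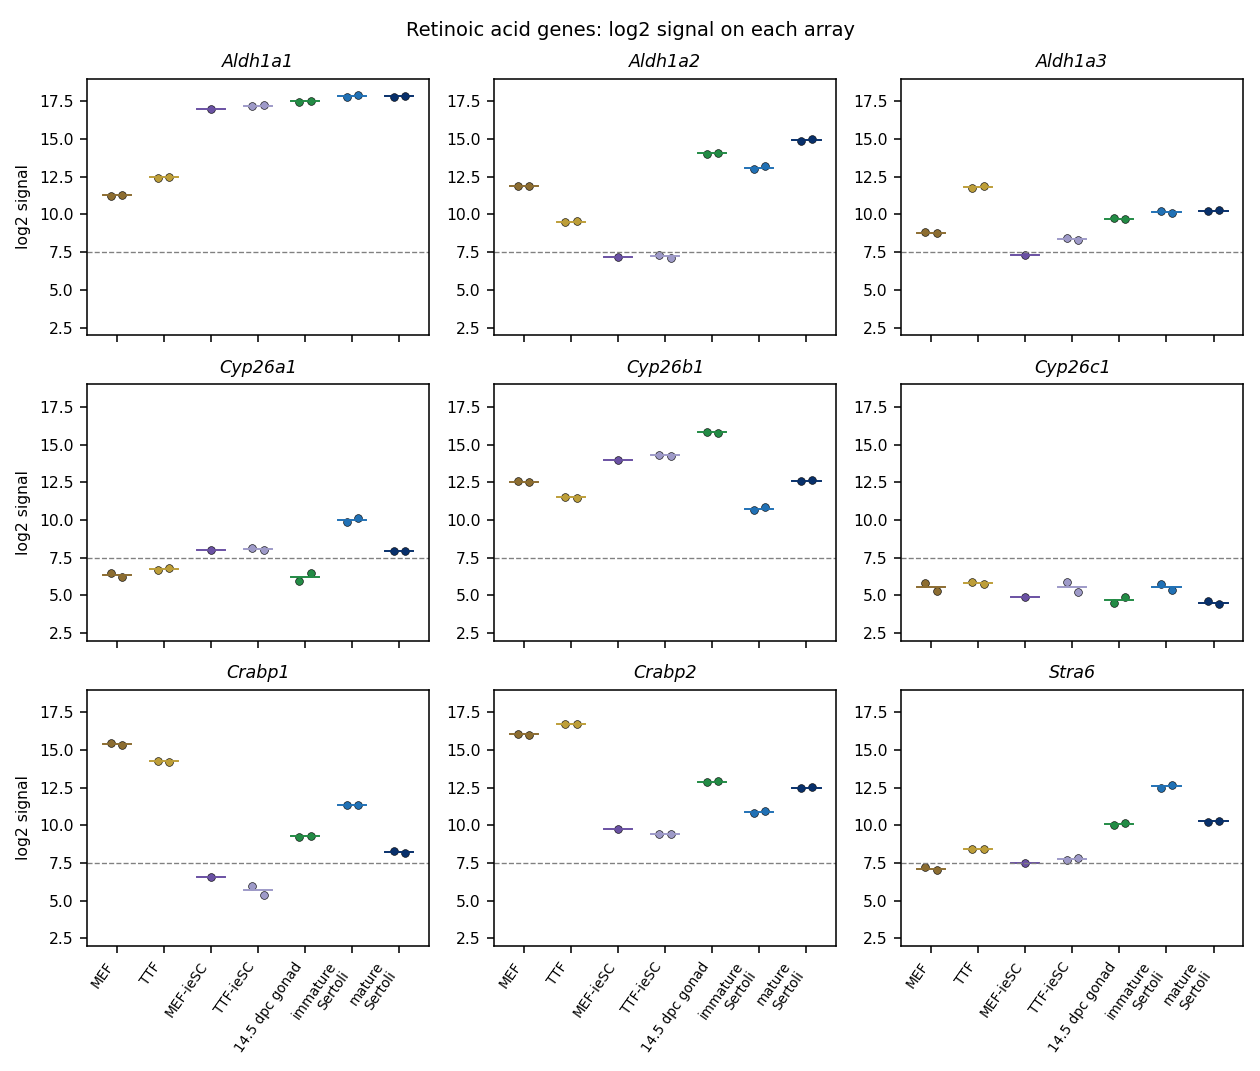
The log2 signal (vertical axis) of the 9 genes on each of 13 arrays in 7 groups (horizontal axis). Points are arrays, short lines are group means, and the dashed line is the array median of 7.488. Aldh1a1 is at 17.02 to 17.91 in all induced and native samples, while Crabp1 and Crabp2 are highest in the fibroblasts.

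Among the synthesis genes, Aldh1a1 separated fibroblasts from every other sample. It read 11.23 and 11.31 in MEF and 12.44 and 12.48 in TTF. In MEF-ieSC it read 17.02 and in TTF-ieSC 17.18 and 17.25. The gonad gave 17.48 and 17.53, immature Sertoli cells 17.78 and 17.91, and mature Sertoli cells 17.81 and 17.85. The induced and native arrays therefore lie within 1 log2 unit of each other and over 4 units above both fibroblasts. Aldh1a1 rose by 4.75 ± 0.06 (log2 difference ± SE) in TTF-ieSC against TTF, or 27.0-fold (limma with Benjamini-Hochberg adjustment, adjusted p = 4.60e-11), and by 5.76 ± 0.07 in MEF-ieSC against MEF, or 54.1-fold (adjusted p = 1.55e-10). In the order of the groups, immature and mature Sertoli cells overlapped (difference -0.02 ± 0.06, adjusted p = 0.823), and TTF-ieSC and MEF-ieSC did not pass the test (0.19, adjusted p = 0.134). The other neighbours passed it, including gonad above TTF-ieSC by 0.29. The array also carries Aldh1a7, a close copy of Aldh1a1, and whether either feature also binds the RNA of the other was not tested. Aldh1a7 rose in the inductions by 4.26 and 4.94, but fell by 2.46 in immature Sertoli cells against the gonad, where Aldh1a1 rose by 0.34.

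Aldh1a2 ran the other way in the induced cells. This enzyme makes retinoic acid in embryonic mesoderm. It read 11.88 and 11.90 in MEF, 9.48 and 9.55 in TTF, 7.16 in MEF-ieSC and 7.34 and 7.10 in TTF-ieSC. All 3 induced arrays were thus under the array median. The native samples were the brightest, with 14.04 and 14.07 in the gonad, 13.01 and 13.21 in immature and 14.88 and 14.98 in mature Sertoli cells. Aldh1a2 fell by 2.30 ± 0.10 from TTF (adjusted p = 5.13e-08) and by 4.74 ± 0.12 from MEF (adjusted p = 3.53e-09), to levels at which TTF-ieSC and MEF-ieSC overlapped (0.06, adjusted p = 0.787). Every other neighbour in its order differed. Against immature Sertoli cells the difference was -5.89 ± 0.10 in TTF-ieSC and -5.96 ± 0.12 in MEF-ieSC, and both rest on dim values in the induced cells.

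Aldh1a3, the remaining synthesis enzyme, was highest in TTF, with 11.75 and 11.88, against 8.84 and 8.76 in MEF. The native samples lay between them, at 9.74 and 9.67 in the gonad, 10.23 and 10.07 in immature and 10.23 and 10.27 in mature Sertoli cells. The induced cells were lowest, at 8.44 and 8.34 in TTF-ieSC and 7.29 in MEF-ieSC. It fell by 3.43 ± 0.08 in TTF-ieSC (adjusted p = 8.62e-10) and by 1.51 ± 0.09 in MEF-ieSC (adjusted p = 1.10e-06). Only immature and mature Sertoli cells were not separated in its order (0.10, adjusted p = 0.274).

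Of the breakdown genes, Cyp26b1 was highest in the gonad, at 15.83 and 15.78. It read 14.32 and 14.26 in TTF-ieSC and 13.95 in MEF-ieSC. Fibroblasts gave 12.57 and 12.50 (MEF) and 11.55 and 11.47 (TTF). Mature Sertoli cells gave 12.59 and 12.64, and immature Sertoli cells were lowest, at 10.63 and 10.84. The induced cells were therefore nearer to the uncultured gonad than either Sertoli culture was. Cyp26b1 rose by 2.78 ± 0.08 from TTF (6.87-fold, adjusted p = 3.64e-09) and by 1.42 ± 0.09 from MEF (2.67-fold, adjusted p = 1.83e-06). It fell by 5.07 ± 0.08 from gonad to immature Sertoli cells (33.5-fold, adjusted p = 4.57e-10). Mature Sertoli cells and MEF were not separated in its order (0.07, adjusted p = 0.404), and TTF-ieSC lay above MEF-ieSC by 0.34 (adjusted p = 0.0484), a call that 14 of the 22 alternative settings did not keep.

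Cyp26a1 was brightest in the immature Sertoli cells, where Cyp26b1 was lowest, and 7 of its 13 values were above the array median. It read 6.51 and 6.24 in MEF, 6.70 and 6.80 in TTF, and 5.98 and 6.50 in the gonad, all under the array median. Immature Sertoli cells were the brightest, at 9.87 and 10.11. TTF-ieSC (8.12 and 8.03), MEF-ieSC (8.00) and mature Sertoli cells (7.92 and 7.95) lay just above the array median and were not separated from each other in the order (adjusted p = 0.870 and 0.771). Cyp26a1 was 3.75 ± 0.17 higher in immature Sertoli cells than in the gonad (adjusted p = 1.55e-07), and it rose by 1.33 ± 0.17 in TTF-ieSC (adjusted p = 9.14e-05) and by 1.63 ± 0.20 in MEF-ieSC (adjusted p = 0.000119). Since the lower group of each was under the array median, the sizes depend on the background. TTF, MEF and gonad, the 3 dimmest groups, were not separated as neighbours (adjusted p = 0.0758 and 0.486). Gonad against TTF, which are not neighbours, did pass the test (-0.51 ± 0.17, adjusted p = 0.0197).

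Of the 8 tested genes, the binding proteins showed the largest differences between induced cells and fibroblasts. Crabp1 read 15.49 and 15.35 in MEF and 14.29 and 14.24 in TTF. It read 6.59 in MEF-ieSC and 6.01 and 5.41 in TTF-ieSC, under the array median on all 3 arrays. The native samples lay between, at 9.26 and 9.29 in the gonad, 11.37 and 11.33 in immature and 8.29 and 8.19 in mature Sertoli cells. Crabp1 fell by 8.55 ± 0.16 from TTF (adjusted p = 3.48e-10) and by 8.83 ± 0.20 from MEF (adjusted p = 2.00e-09), and every pair of neighbours in its order passed the test.

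Crabp2, which hands retinoic acid to its nuclear receptor, read 15.98 to 16.75 on the 4 fibroblast arrays. The induced cells were at 9.74 (MEF-ieSC) and at 9.41 and 9.46 (TTF-ieSC), above the array median. The gonad gave 12.87 and 12.95, immature Sertoli cells 10.82 and 10.98, and mature Sertoli cells 12.46 and 12.54. It fell by 7.31 ± 0.07 from TTF (159-fold, adjusted p = 1.40e-11) and by 6.29 ± 0.09 from MEF (78.4-fold, adjusted p = 1.80e-10). All native arrays thus read above all induced arrays for both binding proteins. The Crabp2 difference from immature Sertoli cells was -1.47 ± 0.07 in TTF-ieSC and -1.16 ± 0.09 in MEF-ieSC.

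Stra6, the uptake receptor, was above the upper quartile only in immature Sertoli cells, and all native arrays read above all induced and fibroblast arrays. Stra6 read 12.51 and 12.66 in immature Sertoli cells, 10.25 and 10.31 in mature ones and 10.05 and 10.16 in the gonad. TTF gave 8.42 and 8.43, TTF-ieSC 7.73 and 7.82, MEF-ieSC 7.51, and MEF 7.21 and 7.06. Stra6 fell by 0.65 ± 0.08 in TTF-ieSC (adjusted p = 6.41e-05) and rose by 0.38 ± 0.09 in MEF-ieSC (adjusted p = 0.00709), the latter from a level under the array median. In a fit on MEF-ieSC and MEF alone that rise had an adjusted p of 0.0644. Against immature Sertoli cells the difference was -4.81 ± 0.08 in TTF-ieSC and -5.07 ± 0.09 in MEF-ieSC. Mature Sertoli cells and gonad did not pass the test as neighbours (0.18, adjusted p = 0.0630), nor did TTF-ieSC and MEF-ieSC (0.26, adjusted p = 0.112).

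As a group, the comparison of induced cells with their fibroblasts asked how far the retinoic acid genes moved with the conversion. In TTF-ieSC against TTF, 3 of the 8 tested genes rose and 5 fell, while of all tested genes 39.5% rose and 35.2% fell, 74.7% in all. In MEF-ieSC against MEF, 4 rose and 4 fell, while of all tested genes 34.3% rose and 33.6% fell, 67.9% in all. At these background shares a count of calls says little about the 9 genes. When a called gene also had to move by at least 1 log2 unit, 7 of 8 were left in each, against 33.7% and 29.2% of all tested genes. The median size of the difference was 3.10 and 3.18, against 0.61 and 0.54 over all tested genes. Because the 9 genes were chosen with earlier results of these data known, these contrasts only describe them. Fibroblast markers moved with these changes: the log2 of the summed signal of 7 markers went from 20.13 to 20.18 in TTF to 16.19 to 16.21 in TTF-ieSC, and from 19.43 to 19.44 in MEF to 16.92 in MEF-ieSC, where 3 of 7 stayed above the array median in both induced groups. The sum over 4 mesothelial markers rose from 14.19 to 14.24 in TTF to 17.41 to 17.46, and from 13.44 to 13.48 in MEF to 16.94, with 4 of 4 above the array median in both. Of these markers Msln, at 17.28 in TTF-ieSC and 16.74 in MEF-ieSC, was the brightest, while Krt19 was lower in the induced cells (8.77 and 8.36) than in TTF (13.92) and MEF (11.62). The sum over 7 peritubular or smooth muscle markers went from 19.07 to 19.12 in TTF and 20.35 to 20.40 in MEF to 14.44 to 14.46 in TTF-ieSC and 15.05 in MEF-ieSC. The part of these cell types in the result was not tested, and in bulk RNA fewer cells of a type and less RNA per cell cannot be told apart.

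**Figure D2:**
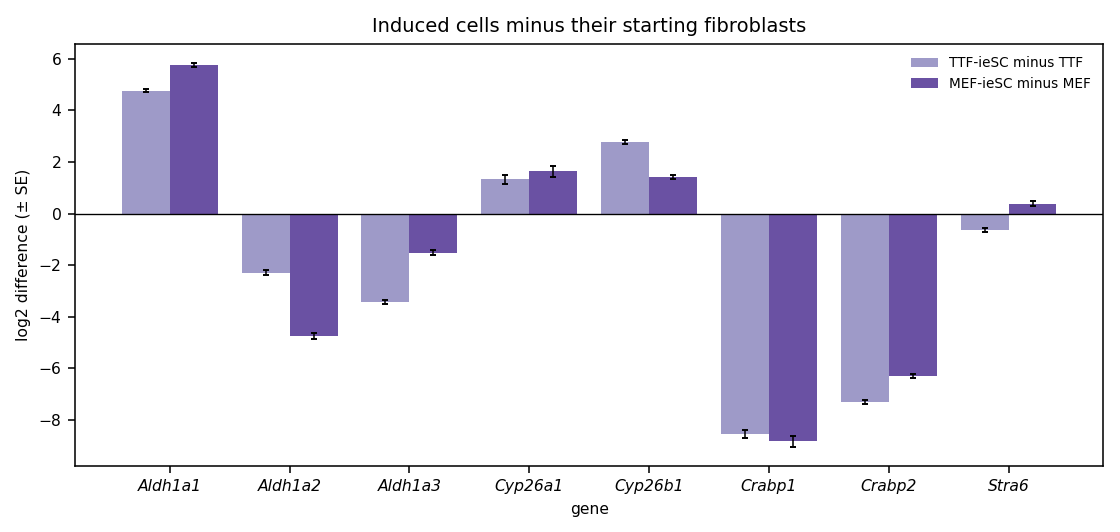
The log2 difference ± SE (vertical axis) of 8 tested genes (horizontal axis), induced cells minus their starting fibroblasts, from a limma fit over 13 arrays. Aldh1a1 and Cyp26b1 rise and Crabp1, Crabp2 and Aldh1a2 fall from both fibroblasts, while Stra6 is at -0.65 from TTF and 0.38 from MEF.

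The starting fibroblasts themselves differed, with 4 of 8 genes higher and 3 lower in TTF than in MEF, against 31.1% higher and 35.5% lower among all tested genes (66.6% called). Fibroblast source and vector (tdTomato in TTF, empty in MEF) changed together and cannot be told apart. Aldh1a3 was 3.02 ± 0.08 higher in TTF (adjusted p = 9.48e-09), Aldh1a2 was lower (-2.38 ± 0.10, adjusted p = 1.14e-07), and Stra6 was 1.28 ± 0.08 higher (adjusted p = 1.30e-06). Cyp26a1 did not pass (0.38, adjusted p = 0.0758), but passed without either gonad array (adjusted p = 0.0201 each). The induced cells were closer to each other: TTF-ieSC and MEF-ieSC differed in 4 of 8 genes, 2 higher and 2 lower, against 7.53% higher and 6.76% lower among all tested genes (14.3% called). Aldh1a3 was higher in TTF-ieSC by 1.10 ± 0.09 (adjusted p = 0.000182) and Crabp1 was lower (-0.88 ± 0.20, adjusted p = 0.0219). In a limma fit on these groups alone neither was called (adjusted p = 0.0608 and 0.220). Cyp26b1 and Crabp2 had differences of 0.34 and -0.31, with adjusted p = 0.0484 and 0.0467, and neither call was kept without either TTF, TTF-ieSC, gonad or mature Sertoli array. Only 1 MEF-ieSC array was analysed here, and the fit takes its spread from the other groups.

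The change from fibroblast to induced cell was compared between TTF and MEF in the same fit, as the first difference minus the second. In it 2 of 8 genes were higher and 4 lower, against 28.9% higher and 25.2% lower among all tested genes (54.1% called). Aldh1a2 was the highest (2.44 ± 0.15, adjusted p = 3.69e-06) and Aldh1a3 the lowest (-1.92 ± 0.12, adjusted p = 3.83e-06). This difference equals that between the induced cells minus that between the fibroblasts, so it shares all of their arrays.

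Among the native samples, the 19 dpc Sertoli cultures differed from the 14.5 dpc gonad in 8 of 8 genes, 5 higher and 3 lower, against 32.6% higher and 37.9% lower among all tested genes (70.5% called). Past 1 log2 unit the count was 5 of 8, against 24.3%. Cyp26b1 and Crabp2 were lower (-5.07 and -2.01), and Cyp26a1, Stra6 and Crabp1 were higher (3.75, 2.48 and 2.07). Stra6 was thus 5.57-fold and Crabp1 4.21-fold higher in the culture. Age, culture and the removal of other cells changed together between these groups and cannot be told apart. The sum over 4 Leydig cell markers was 18.11 to 18.14 in the gonad and 14.54 to 14.70 in the culture, and over 9 germ cell markers 17.19 to 17.21 and 15.50 to 15.58. The sum over 7 peritubular or smooth muscle markers was 17.60 to 17.68 in the gonad and 20.07 in the culture. Mesothelial markers had a sum of 12.02 in the gonad and 14.83 to 14.87 in the culture. Of these Krt19 (14.39 against 10.9) and Msln (12.87 against 9.12) were higher in the culture, and Upk3b and Lrrn4 were lower. Mesonephric or epithelial markers had a sum of 12.21 to 12.28 in the gonad and 12.93 to 13.16 in the culture. There Cdh16 (12.1 against 8.53) and Pax8 were higher, and Epcam and Emx2 were lower. Pax2 was under the array median in both (6.96 against 6.85). Macrophage markers had sums of 13.08 to 13.13 and 14.11 to 14.26. The part of these cells in the result was not tested.

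In mature against immature Sertoli cells several of these changes ran back. Age (8 weeks against 19 dpc) and time in culture (7 against 3 days) changed together here and cannot be told apart. Cyp26b1 was higher by 1.88 ± 0.08 (adjusted p = 1.32e-07), Aldh1a2 by 1.82 ± 0.10 (adjusted p = 5.88e-07) and Crabp2 by 1.60 ± 0.07 (adjusted p = 1.94e-07). Crabp1 (-3.12 ± 0.16, adjusted p = 5.41e-07), Stra6 (-2.30 ± 0.08, adjusted p = 4.24e-08) and Cyp26a1 (-2.05 ± 0.17, adjusted p = 8.87e-06) were lower. Aldh1a1 and Aldh1a3 did not pass. The count was 3 higher and 3 lower, against 28.9% higher and 39.6% lower among all tested genes (68.5% called), and all 6 were over 1 log2 unit, against 21.3%. Both comparisons use the immature Sertoli arrays, so opposite signs between them are not independent. Mature Sertoli cells against the gonad, which do not use those arrays, gave 4 genes higher and 3 lower, against 35.6% higher and 44.3% lower among all tested genes (79.8% called). Past 1 log2 unit were 3 of them, against 35.8% of all tested genes: Cyp26b1 (-3.19 ± 0.08), Cyp26a1 (1.70 ± 0.17) and Crabp1 (-1.04 ± 0.16). Age, culture and the removal of other cells changed together between mature cultures and gonad and cannot be told apart. Spermatid markers were present in the mature cultures, with 5 of 5 above the array median and a sum of 13.54 to 13.58 against 10.58 to 10.63 in immature ones. The mesothelial sum was 10.62 to 10.70 in mature and 14.83 to 14.87 in immature cultures. Of its markers Krt19 (8.61 against 14.39) and Msln (9.53 against 12.87) fell the most. Upk3b differed less (7.15 against 7.76), and Lrrn4 was at 8.45 against 8.32. The mesonephric or epithelial sum was 10.31 to 10.34 in mature and 12.93 to 13.16 in immature cultures. The part of these cell types was not tested.

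Against the native samples the induced cells had less of most of these genes. Cell origin, transgenes, doxycycline, serum and time in culture changed together between these samples and cannot be told apart. In TTF-ieSC against immature Sertoli cells 1 gene was higher and 7 were lower, against 37.8% higher and 39% lower among all tested genes (76.8% called). In MEF-ieSC 1 was higher and 7 were lower, against 34.4% and 36.2% (70.6% called). Cyp26b1 was the higher one, by 3.56 ± 0.08 (11.8-fold) and 3.22 ± 0.09 (9.32-fold). Aldh1a1 had the smallest differences, -0.63 ± 0.06 and -0.82 ± 0.07. Against the gonad 1 was higher and 7 were lower in TTF-ieSC, where 38.2% and 41.5% of all tested genes were (79.7% called), and in MEF-ieSC, where 35.9% and 39.1% were (75% called). There Cyp26a1 was the higher one, by 1.83 ± 0.17 and 1.76 ± 0.20, over a gonad level under the array median, and Cyp26b1 was lower (-1.51 ± 0.08 and -1.85 ± 0.09). Cyp26b1 of the induced cells thus lay above the immature cultures and below the gonad. The marker sums of other cell types also differed between the induced cells and the immature cultures. The peritubular sum was 14.44 to 15.05 in the induced cells and 20.07 in the cultures, the fibroblast sum 16.19 to 16.92 and 18.38 to 18.42, the germ cell sum 11.78 to 12.01 and 15.50 to 15.58, and the mesothelial sum 16.94 to 17.46 and 14.83 to 14.87. Of the mesothelial markers only Krt19 was lower in the induced cells (8.77 in TTF-ieSC and 8.36 in MEF-ieSC, against 14.39). The part of these cell types in the differences was not tested.

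**Figure D3:**
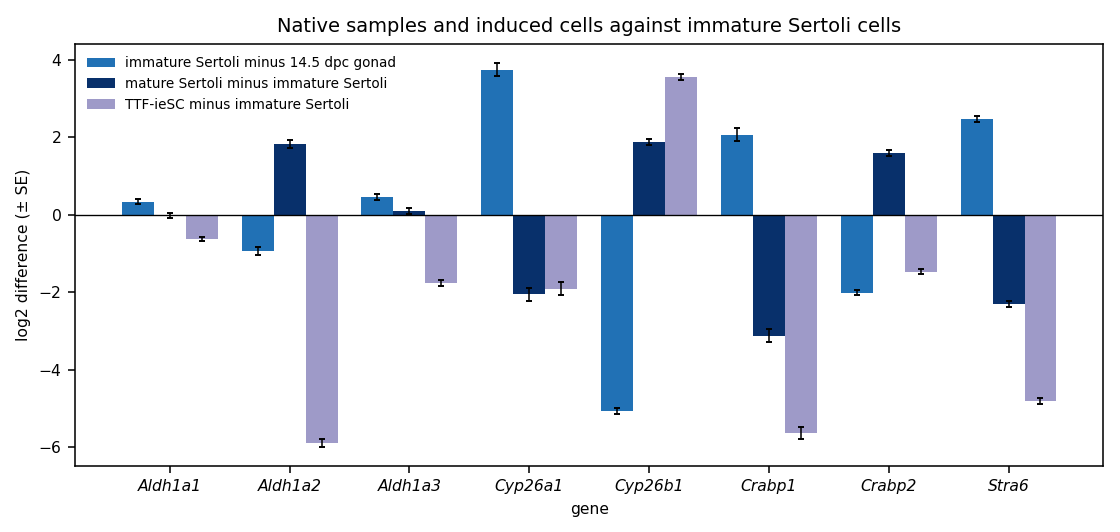
The log2 difference ± SE (vertical axis) of 8 tested genes (horizontal axis) for immature Sertoli cells minus 14.5 dpc gonad, mature minus immature Sertoli cells, and TTF-ieSC minus immature Sertoli cells. The 3 comparisons share the immature Sertoli arrays. Cyp26b1 is at -5.07, 1.88 and 3.56, and Stra6 at 2.48, -2.30 and -4.81.

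How alike the 8 tested genes were is described over the 7 group means, which share their arrays. Crabp1 and Crabp2 had the highest Pearson correlation among them, 0.89, and both ran against Aldh1a1, at -0.82 and -0.84. Aldh1a2 and Stra6 had 0.68. The synthesis genes shared no common pattern, with -0.23 to 0.48 between them, and Cyp26a1 and Cyp26b1 had -0.48. Among 15677 other named genes, those with the highest correlation were Slc47a2 (0.982), Vsig10 and Rplp2 for Aldh1a1, Mrvi1 (0.999), Zfp385b and Noa1 for Aldh1a2, and Slc25a21 (0.996), Plpp3 and Aspa for Aldh1a3. They were Atp2b1 (0.996), Cldn4 and Zfp398 for Cyp26a1, and Mzb1 (0.972), Zbtb45 and Rfx1 for Cyp26b1. For Crabp1 they were Rspo2 (0.995), Swap70 and Rnase10, for Crabp2 Itih2 (0.992), Pkd2 and Sncg, and for Stra6 Stra8 (0.984), Epha8 and Efhc2. Some of these genes barely moved: Rplp2 spanned 0.50 and Noa1 0.57 log2 units over the groups, against 11.24 for Stra8. Of the 15677 genes, from 6 (Cyp26a1) to 75 (Crabp2) were above 0.95 per tested gene, with 27 for Stra6.

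The genes around this core were taken from 4 lists. Their counts stand beside 74.7% of all tested genes called from TTF, 67.9% from MEF, 70.5% in immature Sertoli cells against the gonad and 68.5% in mature against immature cells. The first holds retinol carriers, storage and entry genes, with 13 of 14 on the array and 10 tested. In TTF-ieSC against TTF 4 rose and 4 fell (median -0.15, against 0.06 over all tested genes), and in MEF-ieSC against MEF 5 rose and 2 fell (median 0.64, against 0.01). Ttr, which carries the retinol-binding protein and thyroid hormone in blood, read 14.64 to 15.47 in the 3 induced arrays and 6.44 to 7.90 in all others. It rose by 8.06 ± 0.21 (adjusted p = 2.28e-09) and 8.63 ± 0.25 (adjusted p = 1.00e-08), from levels under the array median. Rbp4, the retinol carrier that Stra6 receives, was the largest fall of the list, at -5.89 ± 0.25 and -5.22 ± 0.31. Rbp4 read 5.01 to 5.99 in the induced cells and 10.44 to 12.16 elsewhere. The carrier and its partner in blood therefore moved in opposite directions in both inductions. In immature Sertoli cells against the gonad 1 rose, Lpl, a lipase of the cell surface, by 2.11 ± 0.11, and 4 fell, with Ttr at -1.33 ± 0.21. In mature against immature cells 2 rose and 1 fell, with Bco2, a carotenoid-cleaving enzyme, at 0.61 ± 0.10 and Rbp4 at -1.06 ± 0.25.

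The second list holds dehydrogenases and related enzymes, with 19 of 20 on the array and 18 tested. In TTF-ieSC against TTF 4 rose and 10 fell (median -0.46), where 39.5% of all tested genes rose and 35.2% fell (median 0.06). In MEF-ieSC against MEF 4 rose and 11 fell (median -0.49), where 34.3% rose and 33.6% fell (median 0.01). Adh1, an alcohol dehydrogenase that also oxidises retinol, fell (-5.55 ± 0.22 and -5.90 ± 0.27) to readings of 3.90 to 5.91, under the array median, while the native samples read 14.29 to 15.46. Aldh1a7 rose the most in both. In immature Sertoli cells against the gonad 9 rose and 5 fell. Adh4, another alcohol dehydrogenase, was 3.10 ± 0.15 higher there, at 11.95 and 11.83 against 8.83 and 8.75. In mature against immature cells 5 rose and 7 fell. Rdh10, which makes retinal from retinol in the embryo, fell by 2.42 ± 0.08, from 12.03 and 12.17 to 9.63 and 9.73. Dhrs3, which runs that reaction backwards, rose by 1.70 ± 0.08, from 14.51 and 14.66 to 16.24 and 16.34. In the 3 induced arrays Rdh10 was at 11.56 to 11.59, against 11.51 and 11.67 in TTF and 10.35 and 10.44 in MEF, and it rose from MEF (1.16 ± 0.10, adjusted p = 1.03e-05).

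**Figure D4:**
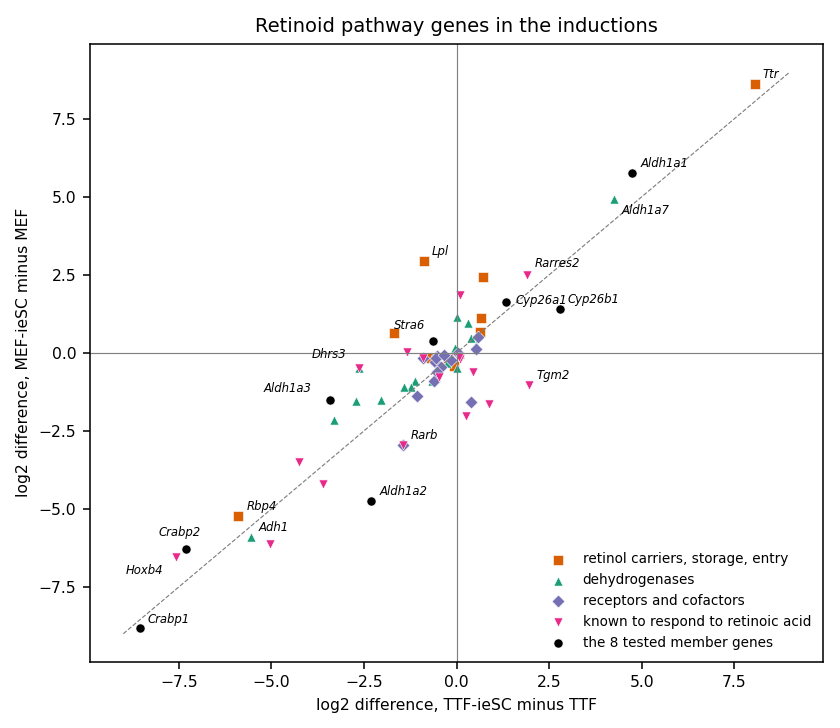
The log2 difference in TTF-ieSC minus TTF (horizontal axis) and in MEF-ieSC minus MEF (vertical axis) for the 8 tested genes and the tested genes of 4 retinoid lists, each point a gene. The dashed line marks equal differences. Ttr, at 8.06 and 8.63, and Crabp1, at -8.55 and -8.83, lie at the ends, and Tgm2, at 1.95 and -1.04, lies on opposite sides of 0.

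The third list holds nuclear receptors and their cofactors, with 15 of 16 on the array and all 15 tested. In TTF-ieSC against TTF 3 rose and 10 fell (median -0.54, against 0.06 over all tested genes, of which 74.7% were called). In MEF-ieSC against MEF 1 rose and 6 fell (median -0.22, against 0.01), so 7 of 15 were called where 67.9% of all tested genes were. The largest fall was that of Rarb, a retinoic acid receptor whose own gene responds to retinoic acid, at -1.44 ± 0.08 and -2.94 ± 0.10. Rarb has 3 features, with differences from -1.44 to -0.01 from TTF and from -2.94 to 0.12 from MEF, and the values given are those of the brightest. Rxrb, a retinoid X receptor, rose by 0.57 ± 0.09 and 0.50 ± 0.11. In immature Sertoli cells against the gonad 5 rose and 9 fell. Rarb rose there by 1.48 ± 0.08, with its other features reaching -0.88, and Nr2f2, an orphan receptor of mesenchymal cells, was at -2.92 ± 0.11. In mature against immature cells 5 rose and 5 fell, with Rarg, another retinoic acid receptor, up by 1.66 ± 0.11 and Ncoa3, a coactivator, at -0.86 ± 0.07.

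The fourth list holds genes known to respond to retinoic acid in some tissue, with 18 of 20 on the array and 17 tested; some of its genes, Rarb, Dhrs3 and Nrip1 among them, are also in the other lists. In TTF-ieSC against TTF 4 rose and 8 fell (median -0.47, against 0.06 over all tested genes, of which 74.7% were called). In MEF-ieSC against MEF 2 rose and 9 fell (median -0.78, against 0.01, with 67.9% called). Both counts of calls are near the share over all tested genes. Hoxb4, a homeobox gene of body position, fell in both (-7.58 ± 0.13 and -6.54 ± 0.16), to readings under the array median. Tgm2, a transglutaminase, rose by 1.95 ± 0.08 from TTF, and Rarres2, which encodes the secreted protein chemerin, by 2.49 ± 0.10 from MEF. In immature Sertoli cells against the gonad 9 rose and 7 fell, with Meis2, a homeobox gene, at -2.58 ± 0.35. In mature against immature cells 7 rose and 6 fell. Against immature Sertoli cells 3 were higher and 13 lower in TTF-ieSC (median -1.46, against 0.01 over all tested genes). Of all tested genes 37.8% were higher and 39% lower there (76.8% called). In MEF-ieSC 3 were higher and 12 lower (median -2.24, against -0.01), where 34.4% and 36.2% of all tested genes were (70.6% called).

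Stra8, which germ cells need to enter meiosis, had the largest rise of the fourth list from gonad to immature cultures and its largest fall from immature to mature ones. It read 16.71 and 16.49 in immature Sertoli cultures, 12.72 and 12.57 in mature ones and 10.52 and 10.39 in the gonad. All 7 fibroblast and induced arrays were under the array median, at 5.11 to 6.74. Stra8 was 6.14 ± 0.24 higher in immature Sertoli cultures than in the gonad (70.6-fold, adjusted p = 7.99e-08) and lower in mature than in immature ones (-3.95 ± 0.24, adjusted p = 1.55e-06). Germ cell markers moved with it only in part: their sum was highest in the gonad (17.19 to 17.21), lower in the immature cultures (15.50 to 15.58) and lower still in the mature ones (15.09 to 15.12), with 9, 7 and 6 of 9 above the array median. By group means 8 of the 9 markers were lower in the immature cultures than in the gonad, from Dppa3 (6.06 against 15.51) to Sycp3 (11.81 against 11.89), and Tex101 was higher (13.94 against 13.14). Stra8 was thus brightest in the group in which Cyp26b1 was lowest and Cyp26a1 and Stra6 were highest. The part of the germ cells in these values was not tested.

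**Figure D5:**
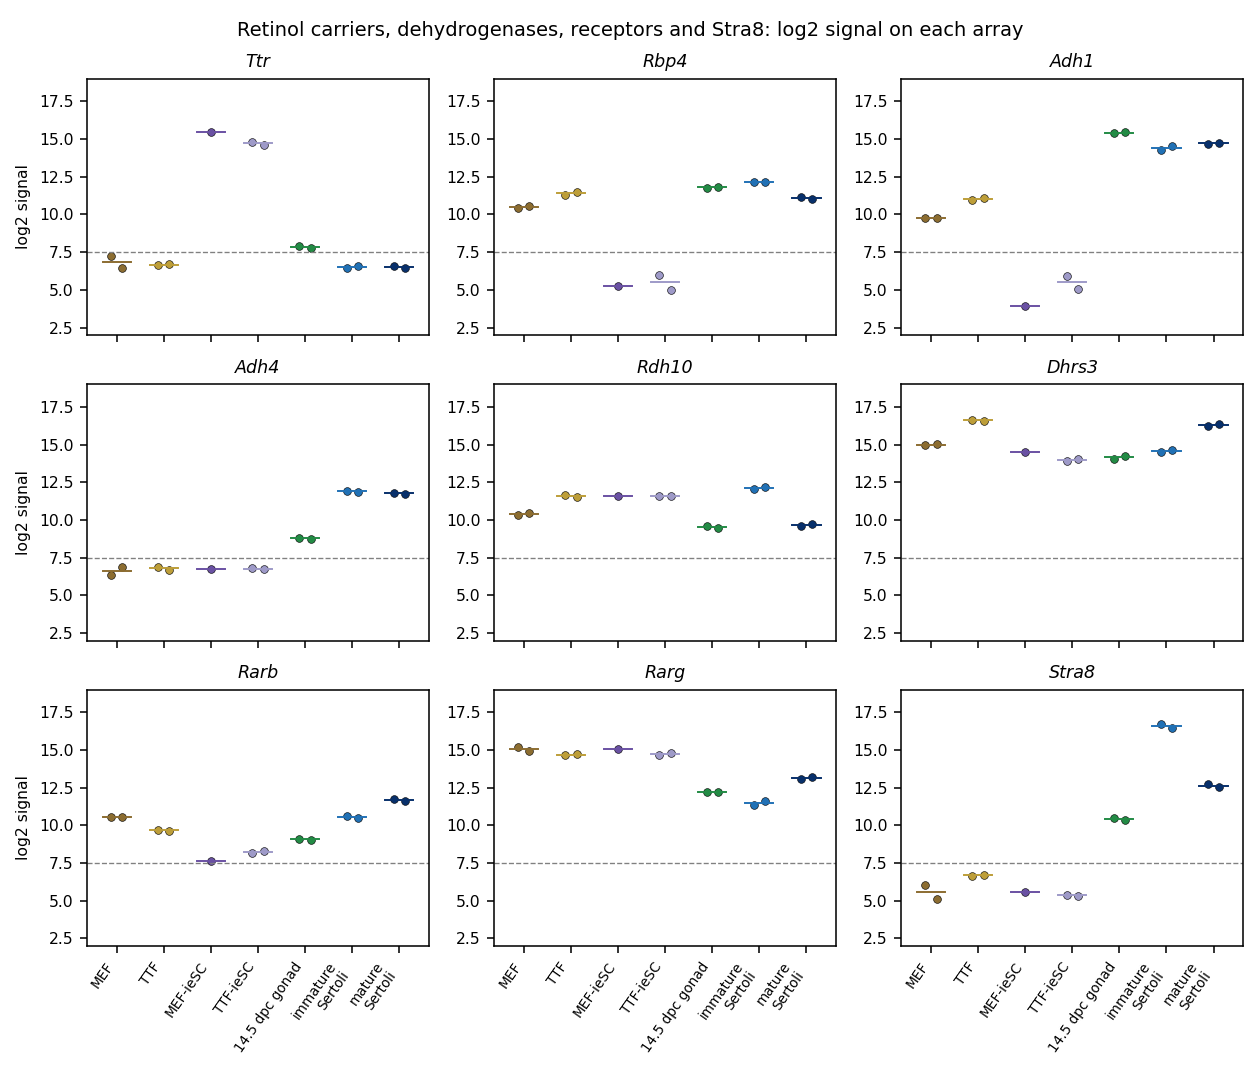
The log2 signal (vertical axis) of 9 genes of the surrounding lists on each of 13 arrays in 7 groups (horizontal axis). Points are arrays, short lines are group means, and the dashed line is the array median of 7.488. Ttr is bright only in the 3 induced arrays, where Rbp4 and Adh1 are dim, and Stra8 is above the median only in the native samples.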

How the data were processed

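Total RNA was hybridised to one-colour Agilent arrays with Cy3 label, per the labels. The authors deposited log2 signal values, already brought to one distribution on all 13 arrays; limma is named per the submitters' processing notes, and no source used here describes the background correction or a floor. Features were named through the platform annotation, with symbols updated through a RefSeq gene table of GRCm38.p6 that served for names and neighbours (31465 features had 1 symbol, 31511 none, 0 several). A gene was its feature with the highest mean, and the test took the 16658 genes that exceeded the array median on 2 or more arrays. All 7 groups entered 1 fit in limma 3.58.1 (lmFit, then eBayes, under R 4.3.3) (6 residual and 2.18 prior degrees of freedom). Tests were two-sided, with Benjamini-Hochberg adjustment over all tested genes, and a call is an adjusted p under 0.05. Summed marker levels are log2 of summed linear signal.

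The 9 genes, the lists and the markers were chosen with earlier results of these data known. Genes of the lists were named by rule: the called gene with the largest rise and with the largest fall per list in the comparisons of induced cells with fibroblasts, immature Sertoli cells with gonad, and mature with immature Sertoli cells. The genes most alike were the 3 with the highest correlation per gene, without clone or predicted names. Some markers were singled out after their values were seen: Clu, Sox9, Wt1, Msln, Krt19, Upk3b, Lrrn4, Cdh16, Pax8, Pax2, Epcam, Emx2, Dppa3, Sycp3 and Tex101. Labels give no batch and no replicate numbers; replicates are numbered in accession order, which only names them. The alternatives were other normalizations, filters, feature rules, call rules, variance models, fits on the compared groups alone, and leaving out each array of a group of 2. Their use on the surrounding lists was chosen after seeing the data.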

Additional observations from a re-analysis of the deposited data

Results flagged for a closer look

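The change from fibroblast to induced cell was itself compared between TTF and MEF, as the TTF-ieSC against TTF difference minus the MEF-ieSC against MEF difference, and 54.1% of all tested genes were called in it. Of the 8 tested genes 6 were called. Aldh1a2 (2.44 ± 0.15, adjusted p = 3.69e-06) and Cyp26b1 (1.36 ± 0.12, adjusted p = 3.09e-05) were higher in it. Aldh1a1 (-1.0 ± 0.10), Aldh1a3 (-1.92 ± 0.12), Crabp2 (-1.02 ± 0.11) and Stra6 (-1.02 ± 0.12) were lower. For Stra6 the change was a fall from TTF and a rise from MEF. Crabp1 (0.28 ± 0.26, adjusted p = 0.385) and Cyp26a1 (-0.31 ± 0.26, adjusted p = 0.357) did not pass.

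The starting fibroblasts differed in the opposite direction in each of the 6 genes called. In TTF against MEF the differences were -2.38 for Aldh1a2, -1.02 for Cyp26b1, 1.19 for Aldh1a1, 3.02 for Aldh1a3, 0.71 for Crabp2 and 1.28 for Stra6. The fibroblast arrays enter both comparisons, so the opposite signs are not independent. Of the surrounding genes, Tgm2 (2.99) and Rarb (1.5) were higher in the difference of the changes, and Hoxb4 (-1.04), Aldh1a7 (-0.68) and Rarres2 (-0.58) were lower. These rest on 1 MEF-ieSC array.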

How the results depend on the processing

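Across 22 alternatives, run on 12 comparisons for the 8 tested genes and on the comparisons that named a surrounding gene, no call changed sign; Rarb was followed there by its brightest feature, and some of its other features had the opposite sign in MEF-ieSC against MEF and in immature Sertoli cells against gonad. The count of genes called changed by over 1.5 times in 3 of 12 comparisons, and in 2 of these only with a minimum log2 difference of 1. With that minimum it was 5 in place of 8 for immature Sertoli cells against gonad, 3 in place of 7 for mature Sertoli cells against gonad, and 1 in place of 4 for TTF-ieSC against MEF-ieSC. In this last comparison it was 2 with no filter and 0 in a limma fit on these groups alone, where 4 of the 8 had an unadjusted p under 0.05 and 6 of all tested genes were called in place of 2381. Leaving out 1 array at a time gave 2 to 4. Without TTF-ieSC replicate 2, Crabp1 passed in the difference between the inductions (0.58, adjusted p = 0.00479). With array weights, Stra6 passed in mature Sertoli cells against gonad (0.18, adjusted p = 0.0239). In the fit on their groups alone, Aldh1a3 and Crabp1 lost their calls in TTF-ieSC against MEF-ieSC (adjusted p = 0.0608 and 0.220). Of the list counts, the carriers in TTF-ieSC against TTF went from 8 to 5 without TTF-ieSC replicate 1 or TTF replicate 2, to 4 with a filter at the 75th percentile and to 2 with the minimum difference. That filter also gave 4 in place of 7 carriers from MEF and 3 in place of 5 in immature Sertoli cells against gonad, and 7 in place of 14 and 9 in place of 15 dehydrogenases from TTF and MEF. Fits on the compared groups alone called 8 in place of 5 carriers in immature Sertoli cells against gonad and 5 in place of 3 in mature against immature cells. With the minimum difference 12 of the 16 list counts moved by over 1.5 times, all downward. Over all tested genes the calls went from 2381 to 13299 over the 12 comparisons to 456 to 5969 with the minimum difference. With every feature tested apart, 25285 features took the place of 16658 genes. The calls then rose by over 1.5 times in 8 of the 12 comparisons, to 17039 to 20028 from 11318 to 13299. The cause of these changes was not tested beyond the fewer genes, added features or stricter rule that some settings impose. No paired analysis was possible because the labels carry no replicate numbers, and numbers given in accession order pair no samples.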
